A study of Danio rerio with 6 samples.

Results

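Most of the genes described here encode glycoproteins of the extracellular matrix, the enzymes that cross-link or cut them and the inhibitors of those enzymes. Members were taken by gene symbol, with symbol patterns chosen when earlier results of these data were known. Of the 10232 genes in the deposited table, 46 qualified: 9 laminin chains, 2 basement membrane linkers (nid1b and agrn), 4 Fraser complex genes, 1 fibronectin, 5 genes with symbols of microfibril or elastic fibre proteins, 4 matricellular genes, 4 genes for decorin and matrilins, 6 lysyl oxidases, 5 matrix metalloproteinases, 3 ADAMTS proteases, 2 tissue inhibitors of metalloproteinases, and ngs (notochord granular surface). The symbol patterns for emilins, perlecan (hspg2), lumican and biglycan matched no row. Matching by name has its limits: mfap1 encodes a splicing factor in mammals, and mfap4 is used as a macrophage marker in zebrafish. ngs entered through a pattern for its own symbol and is on the study's list of changed genes from the same data. Whether ngs encodes a matrix protein was not examined, and it is counted with the matrix genes below.

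Endothelial cells (ECs) were sorted as GFP+ cells from dissected zebrafish tails, the region of the caudal haematopoietic tissue (CHT), at 36 hpf and were profiled by bulk RNA-seq, with 3 libraries in each group. DN-bmal1a libraries came from flk1:GFP;flk1:GAL4;UAS:DN-bmal1a embryos, in which the flk1 (kdrl) promoter drives GAL4 and GAL4 switches on a dominant-negative form of the circadian clock protein Bmal1a. Control libraries came from flk1:GFP;UAS:DN-bmal1a embryos, so both groups carry the reporter and the silent transgene and only the GAL4 driver separates them. The same promoter drives GAL4 and the GFP used for sorting, and each library pools cells of many embryos (about 5000 sorted cells), so a value is an average over whatever cells passed the GFP gate.

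Blood vessels rest on a basement membrane, a thin sheet in which laminin trimers (1 alpha, 1 beta and 1 gamma chain) polymerise and are tied to type IV collagen by nidogens. Outside this sheet lie fibrillin microfibrils, fibronectin and collagen fibres, which lysyl oxidases cross-link. Matrix metalloproteinases and ADAMTS proteases cut these proteins, and the secreted TIMP proteins block the metalloproteinases. In the zebrafish tail the notochord, the fin fold and the muscle segments, all close to the CHT, are themselves built on such matrix.

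The deposited values are reads per 1000000 of a scaled library size (CPM), and the libraries held 26161915 to 55004237 reads in listed genes. Differences are given as log2 fold changes, DN-bmal1a minus control, on log2(CPM + 1), with standard errors, p-values and Benjamini-Hochberg adjusted p-values over all 10232 genes from limma. A gene was called at an adjusted p under 0.05 with at least a 2-fold change, and 1 gene of the table (0.00977%) was. DN-bmal1a replicate 2 was the shallowest library and had 1760 genes at 0, against 34 to 865 in the others. Of 16 endothelial marker genes, listed with earlier results of these data known, 14 were in the table with reads in all libraries. Their summed level was 7978, 9456 and 9984 CPM in control replicates 1 to 3 and 6094, 4526 and 4962 CPM in DN-bmal1a replicates 1 to 3. At an unadjusted limma p under 0.05, 9 of the 14 were lower, against 8.12% of all genes, and 0 were higher, against 3.10%. The marker kdrl, whose promoter drives GAL4 and the sorted GFP, stood at 911, 1116 and 1289 CPM in controls. In DN-bmal1a libraries kdrl stood at 620, 605 and 478 CPM, without overlap of the groups. The markers stab2 and flt4 are also on the study's list of changed genes from these libraries. The list was not uniform: fli1a was about level (log2 fold change -0.05), and the groups overlapped for fli1a, clec14a, erg, pecam1, kdr and tek. In bulk samples, fewer cells of a type and less RNA per cell cannot be told apart. Transcripts of bmal1a, listed as arntl1a, stood at 20.6, 16.8 and 3.28 CPM in controls and at 42.9, 22.1 and 55.5 CPM in DN-bmal1a libraries, and reads from the transgene and from the endogenous gene could not be separated.

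Most matrix genes had a lower mean log level in DN-bmal1a ECs, and none passed the thresholds for a call in limma. The study's own edgeR analysis of these same libraries, at the same thresholds, listed ngs, frem1b and fbn2b as changed, all lower. The limma fit and that analysis thus differ in which members pass. A log2 fold change below 0 was found for 40 of the 46 members (87.0%), against 58.1% of all genes, and the median was -0.56 over the members against -0.13 over all genes. At an unadjusted limma p under 0.05, 7 members (15.2%) were lower, against 8.12% of all genes, and 0 were higher, against 3.10% of all genes. These 7 were the laminin genes lama1 and lamc1, the matricellular genes postnb and tnc, the protease gene mmp2, the inhibitor gene timp2b, and ngs. The lowest adjusted p of a member was 0.234, for mmp2. Every DN-bmal1a library lay below every control library for 4 members (8.70%: ngs, mmp2, postnb and tnc), near the 10.7% of all genes that did so, and 0 members had all DN-bmal1a libraries above the controls, against 7.00% of all genes. With 3 libraries against 3, an exact permutation test of a single gene cannot give a p below 0.1. Count-based tests on the reads recovered from the table called 1 member with the edgeR exact test (ngs, where 0.371% of all genes were called), 2 with DESeq2 (ngs and mmp2, where 1.87% were called) and 0 with the edgeR quasi-likelihood test, which gave 804 genes and 3 members (mmp2, ngs and postnb) an unadjusted p under 0.05.

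**Figure D1:**
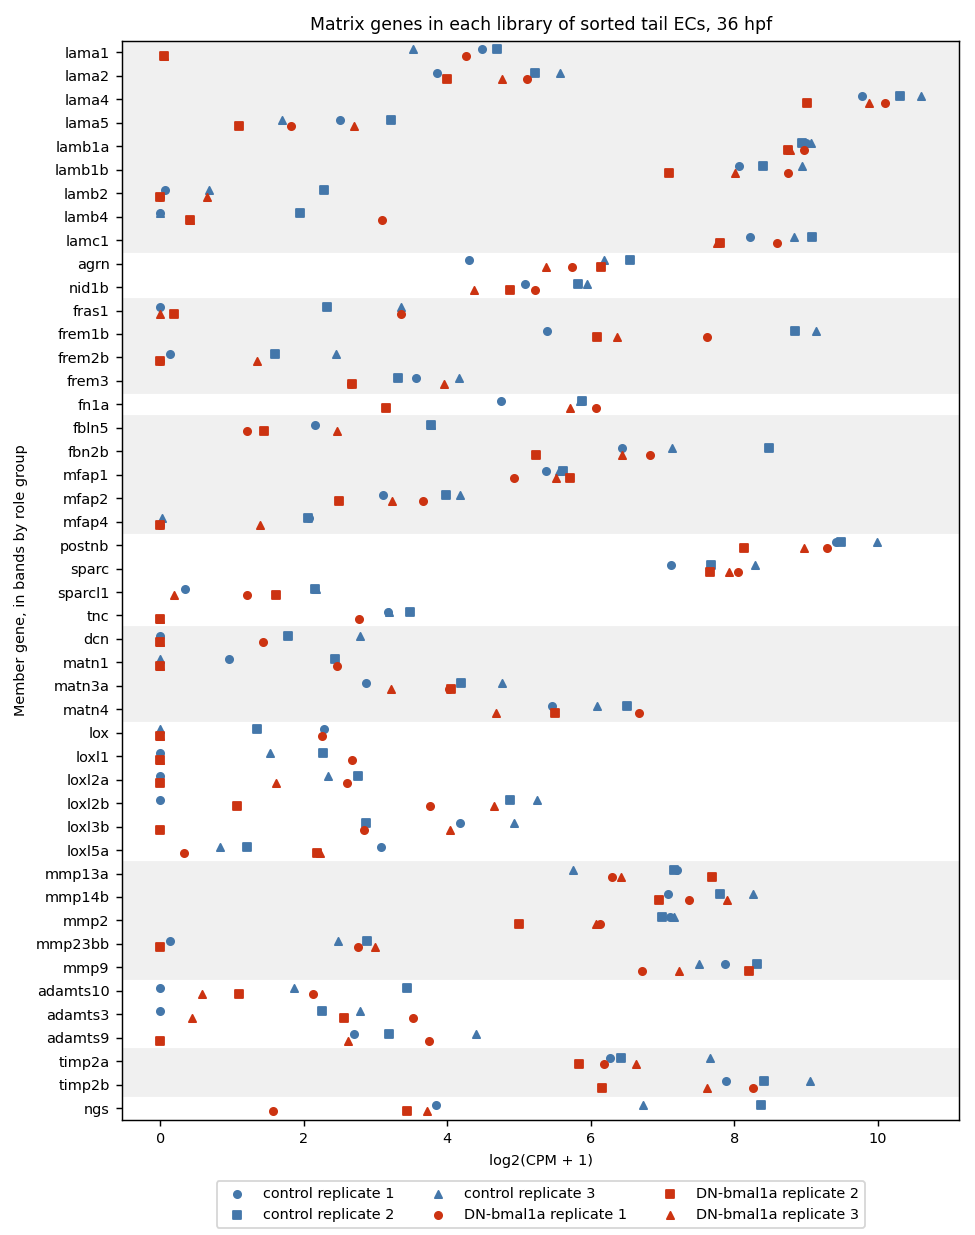
Level of each of the 46 matrix genes in each of the 6 libraries, on the x axis as log2(CPM + 1), with genes in bands by role. Blue symbols are controls, red symbols are DN-bmal1a libraries, and circle, square and triangle are replicates 1 to 3. The rows for mmp2, postnb, tnc and ngs are the 4 in which all red symbols lie to the left of all blue ones, and DN-bmal1a replicate 2 and control replicate 1 often hold the lowest value.

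Libraries of 1 group differed as much among themselves as the groups differed from each other for most of these genes. For 41 members the difference between group means was smaller than the range of the 3 controls, and for 42 it was smaller than the range of the 3 DN-bmal1a libraries. A range is a wide measure beside a difference of means, and the same counts were not made over all genes. These counts are therefore a description and not a trait of the members. mmp2 was the one member whose difference exceeded both ranges. The lowest library was DN-bmal1a replicate 2 for 15 members (32.6%, against 26.7% of all genes) and control replicate 1 for 8 members (17.4%, against 14.4%). The highest was control replicate 3 for 21 members (45.7%, against 18.7%). 17 members had 0 reads in at least 1 library and 29 had reads in all 6, as 7524 of all 10232 genes did. In DN-bmal1a replicate 2, 12 of the 46 were at 0, against 1760 of the 10232 genes. In control replicate 1, 8 were at 0, against 696 of the 10232 genes.

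The number of lower members at a p under 0.05, 7 with all libraries, depended on which library was present. Without control replicate 1 it was 12 (6.65% of all genes were lower at this threshold), without control replicate 2 it was 2 (4.94%), and without control replicate 3 it was 2 (5.23%). Without DN-bmal1a replicate 1 it was 11 (10.9%), without replicate 2 it was 3 (6.89%), and without replicate 3 it was 4 (7.94%). No member was higher at this threshold in any of these 6 fits. The median log2 fold change of the members lay between -0.90 and -0.35 across them, and that of all genes between -0.16 and -0.06. Leaving out control replicate 1 and DN-bmal1a replicate 2 together, an alternative chosen after seeing the data, gave 12 lower members, 0 higher and a median of -0.62. In that fit 6.87% of all genes were lower at this threshold.

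Added together, the reads of the 46 genes stood at 4143, 6510 and 7148 CPM in controls (mean 5934 ± 1583, SD, n = 3) and at 4878, 2933 and 3914 CPM in DN-bmal1a libraries (3909 ± 973, SD, n = 3). DN-bmal1a replicate 1 lay above control replicate 1, so the groups overlap in this sum. The endothelial marker sum given above, in the same order of libraries, also had its lowest control in replicate 1 and its highest DN-bmal1a value in replicate 1, and the part of endothelial content in the matrix sum was not tested. Reads of a gene scale with transcript length as well as with abundance, and lama4, lamb1a, lamb1b and lamc1 gave 42.8% of the controls' summed level.

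**Figure D2:**
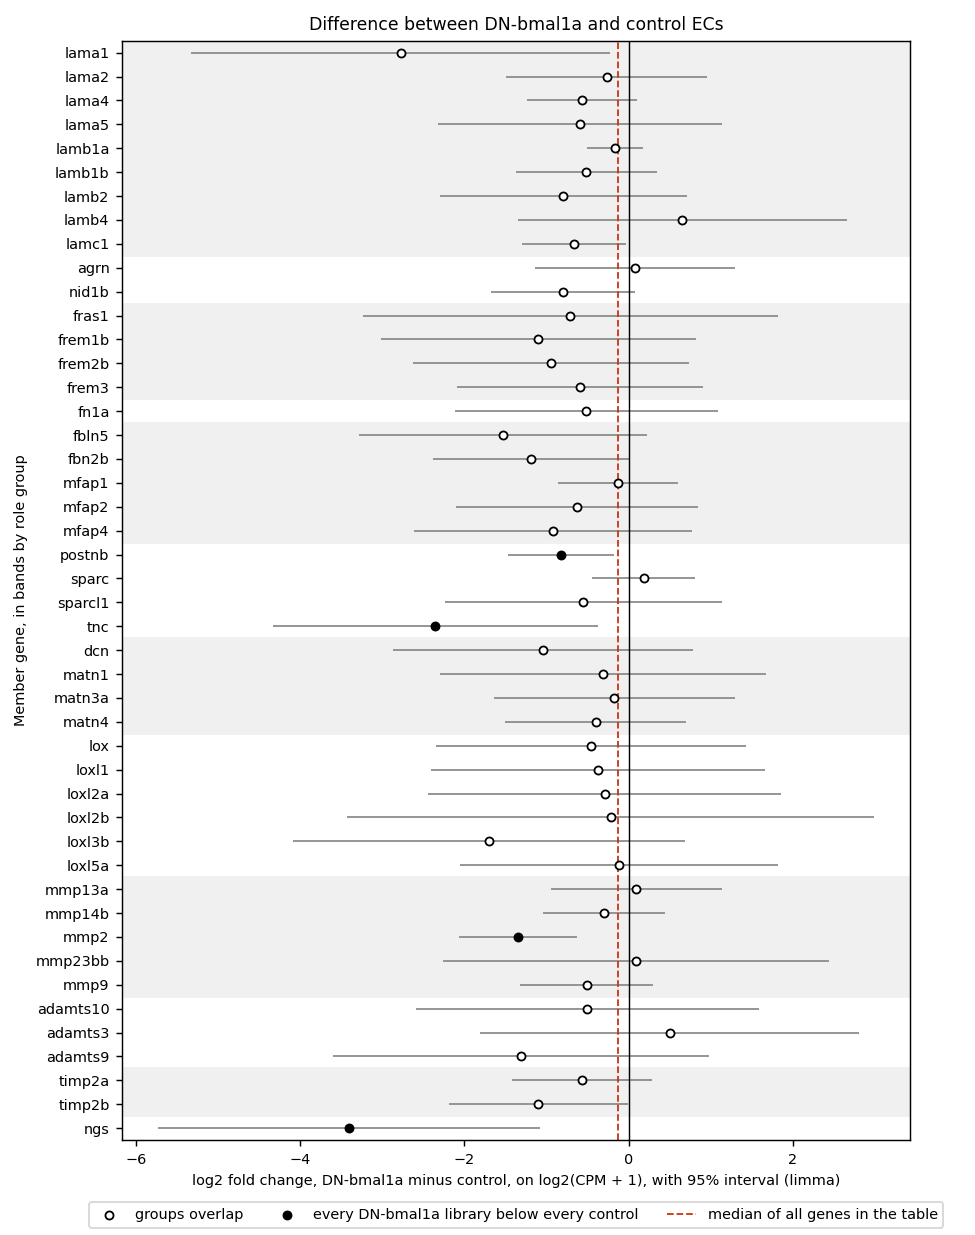
Log2 fold change of each matrix gene, DN-bmal1a minus control, on log2(CPM + 1), with the 95% interval from limma. Filled points mark the 4 genes whose groups do not overlap, the black line is no difference, and the dashed red line is the median of all genes at -0.13. 40 of the 46 points lie left of 0, and most intervals cross it.

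Laminins form the framework of the basement membrane. Of the 9 chains, 8 had a log2 fold change below 0 and 2 (lama1 and lamc1) had an unadjusted p under 0.05, with a median of -0.57. Their summed level was 2600 ± 563 CPM in controls and 1892 ± 582 CPM in DN-bmal1a ECs (SD, n = 3), and the groups overlap. The alpha 4 chain, characteristic of vascular basement membranes in mammals, is encoded by lama4, which stood at 876, 1270.4 and 1558 CPM in controls and at 1101, 514 and 940.0 CPM in DN-bmal1a libraries. DN-bmal1a replicate 2 alone was below the controls, while DN-bmal1a replicates 1 and 3 lay within their range, for a log2 fold change of -0.57 (SE 0.30, adjusted p = 0.520). The single gamma 1 gene in the table, lamc1, whose product joins most laminin trimers, stood at 298, 539.9 and 455 CPM in controls and at 385, 221 and 216 CPM in DN-bmal1a libraries. DN-bmal1a replicates 2 and 3 were below all controls and replicate 1 was above control replicate 1, and the log2 fold change was -0.66 (SE 0.28, 95% interval -1.30 to -0.03, adjusted p = 0.432).

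The beta 1 chain has a pair of genes in zebrafish. lamb1a varied little between libraries, at 508, 490.0 and 536 CPM in controls and 501, 429 and 436 CPM in DN-bmal1a libraries, a log2 fold change of -0.17 (SE 0.15, 95% interval -0.51 to 0.17, adjusted p = 0.706). DN-bmal1a replicate 1 was inside the control range and the other DN-bmal1a libraries were below it. lamb1b varied more, at 267, 336 and 489 CPM in controls and 429, 136 and 257 CPM in DN-bmal1a libraries (log2 fold change -0.52, SE 0.38, adjusted p = 0.647). DN-bmal1a replicates 2 and 3 were below the controls, replicate 2 by the wider margin. Whether the log2 fold changes of the pair differ was not tested, and their intervals overlap.

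The alpha 1 gene lama1, needed in zebrafish for the early notochord, eye and body axis, was near absent from 2 of the 3 DN-bmal1a libraries. It had 886, 925 and 528 reads in controls (21.4, 24.8 and 10.5 CPM), 787 reads in DN-bmal1a replicate 1 (18.2 CPM), and only 1 and 2 reads in DN-bmal1a replicates 2 and 3. DN-bmal1a replicate 1 was thus within the controls while the other DN-bmal1a libraries were below the 3 reads used here as a detection floor. The log2 fold change was -2.78 (SE 1.14, adjusted p = 0.412), and in the edgeR quasi-likelihood test lama1 was not among the 3 members at an unadjusted p under 0.05. The alpha 2 chain, the main laminin alpha chain of muscle basement membrane, is encoded by lama2, which stood at 13.5, 36.2 and 46.6 CPM in controls and 33.4, 14.9 and 26.0 CPM in DN-bmal1a libraries, with overlapping groups. lama5, lamb2 and lamb4 stayed at 8.27 CPM or less in every library, and lamb4 had the largest log2 fold change above 0 of any member, with 0 reads in control replicates 1 and 3 and 7.48 CPM in DN-bmal1a replicate 1.

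Neither of the linkers that join laminin to other matrix had a p under 0.05. nid1b, a nidogen that ties laminin to type IV collagen, stood at 32.8, 55.6 and 60.9 CPM in controls and at 36.5, 28.4 and 19.6 CPM in DN-bmal1a libraries. Only DN-bmal1a replicate 1 reached the control range, and the log2 fold change was -0.79 (SE 0.39, adjusted p = 0.490). agrn encodes agrin, a heparan sulphate proteoglycan that clusters acetylcholine receptors at the neuromuscular junction, and stood at 18.6, 92.8 and 71.5 CPM in controls and at 52.6, 69.5 and 40.5 CPM in DN-bmal1a libraries. All DN-bmal1a values lay between the lowest and the highest control, the log2 fold change was 0.08 (SE 0.54, adjusted p = 0.966), and it turned to -0.61 without control replicate 1.

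The Fraser complex anchors embryonic epithelia to the tissue beneath, and zebrafish that lack one of its proteins blister in the fin fold. All 4 of its members in the table (fras1, frem1b, frem2b and frem3) had a log2 fold change below 0, and none had a p under 0.05. frem1b, which held most of their reads, stood at 41.0, 457 and 561 CPM in controls and 196, 66.9 and 81.1 CPM in DN-bmal1a libraries (353 ± 275 against 115 ± 70.7, SD, n = 3). Control replicate 1 was the lowest of all 6 libraries, while control replicates 2 and 3 were more than 2-fold above every DN-bmal1a library. The log2 fold change was -1.10 (SE 0.85, 95% interval -3.02 to 0.81, adjusted p = 0.665). Without control replicate 1 it was -2.30 (adjusted p = 0.305), and across the fits that left out 1 library it lay between -2.30 and -0.43. fras1, frem2b and frem3 had 0 to 16.9 CPM across libraries with overlapping groups. As frem1b is best known from epidermis and fin fold, the summed level of 14 epidermal marker genes is given beside it: 1407, 1129 and 667 CPM in controls and 607, 1165 and 751 CPM in DN-bmal1a libraries. In every library krt4 was the largest single part of the sum. The list was not uniform. Among controls, krt4 (976, 665 and 368 CPM), cyt1, cyt1l, epcam, cldne, agr1 and krtt1c19e were highest in replicate 1. In contrast, krt5 (1.14, 15.2 and 19.4 CPM), cdh1 (0.12, 18.9 and 6.52 CPM) and cldni were lowest in control replicate 1, as frem1b was. The remaining markers of the list were neither highest nor lowest there among controls. The fin fold genes and1 (7.25, 58.3 and 41.6 CPM) and and2 (1.06, 39.5 and 21.0 CPM) were also lowest in control replicate 1. In DN-bmal1a libraries and1 stood at 16.8, 123 and 23.5 CPM and and2 at 36.0, 57.9 and 19.2 CPM. Their log2 fold changes were above 0 (0.46 and 1.53, with overlapping groups), unlike that of frem1b. The part of epidermal and fin fold cells in the frem1b values was not tested.

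**Figure D3:**
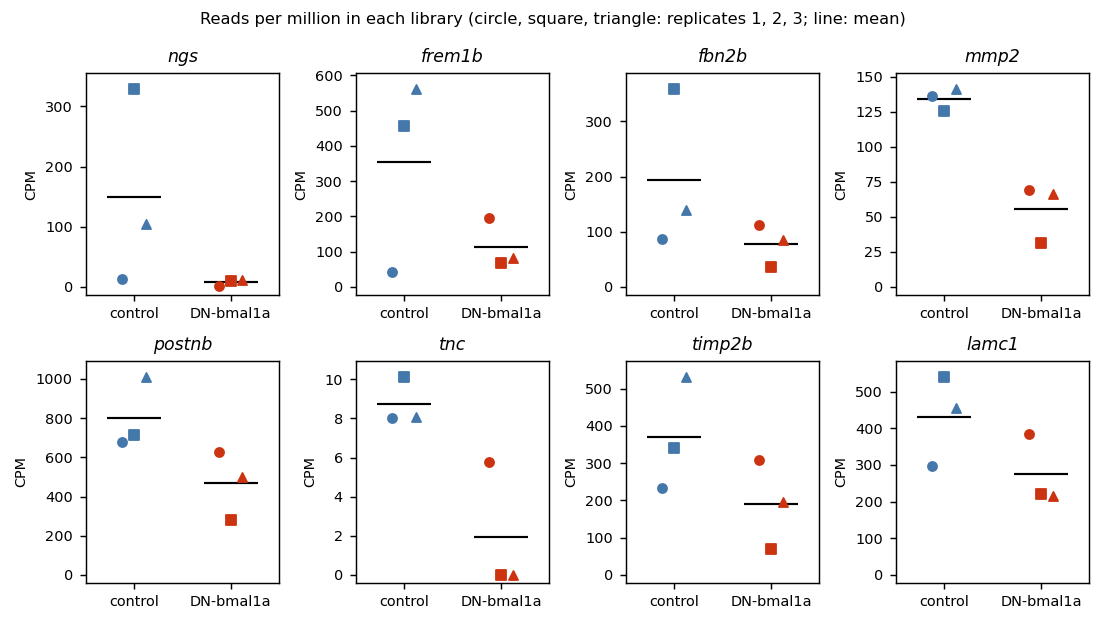
CPM of 8 matrix genes in each library, with each panel on its own linear axis. Circle, square and triangle are replicates 1 to 3 of the control (blue) and DN-bmal1a (red) groups, and the line is the mean of 3. The 3 controls of mmp2 lie at 126 to 141 CPM, above 31.0 to 69.0 CPM in DN-bmal1a ECs, whereas the controls of ngs, frem1b and fbn2b are spread widely.

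Fibronectin, an early matrix protein that cells grip through integrins, was represented by fn1a at 25.9, 57.7 and 56.6 CPM in controls and 66.4, 7.81 and 51.4 CPM in DN-bmal1a libraries. DN-bmal1a replicate 2 was the lowest library and DN-bmal1a replicate 1 the highest. On the log2 scale the difference was -0.52 (SE 0.71, adjusted p = 0.815) and became 0.40 without DN-bmal1a replicate 2.

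The 3 genes for known microfibril and elastic fibre proteins (fbn2b, fbln5 and mfap2) had log2 fold changes below 0, and none had a p under 0.05 in limma. fbn2b encodes a fibrillin that zebrafish need for the notochord and the fin fold, and stood at 85.9, 358 and 139 CPM in controls and 112, 36.8 and 85.7 CPM in DN-bmal1a libraries. Control replicate 2 was the highest by far, and DN-bmal1a replicate 1 lay above control replicate 1. The log2 fold change was -1.19 (SE 0.53, 95% interval -2.38 to 0.01, adjusted p = 0.450), between -1.64 and -0.62 when 1 library was left out. Its unadjusted p was under 0.05 in 6 of 11 other settings (a pseudocount of 10, the filter on low values, quantile normalisation, array weights, the edgeR exact test and DESeq2) and in 2 of the 6 fits with 1 library left out, while its adjusted p was 0.190 or more in all of them. fbln5, a fibulin that helps to assemble elastic fibres, was near 12.7 CPM in control replicates 2 and 3 and at 3.48 CPM in control replicate 1, against 1.32, 1.72 and 4.53 CPM in DN-bmal1a libraries. Its groups overlap through control replicate 1, and the log2 fold change was -1.53 (SE 0.78, adjusted p = 0.507). mfap2, a microfibril glycoprotein gene, was at 4.62 to 17.2 CPM with overlapping groups. Of the genes that entered by name, mfap1 was even across libraries (29.3 to 51.5 CPM) and mfap4 did not exceed 3.21 CPM.

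Matricellular proteins sit in the matrix and tune how cells hold on to it. postnb encodes a periostin, a collagen-binding protein of fin folds, muscle boundaries and connective tissue, and stood at 679.9, 715 and 1010.1 CPM in controls and at 627, 279.8 and 501 CPM in DN-bmal1a libraries. All DN-bmal1a values were below all controls, although the gap between DN-bmal1a replicate 1 and control replicate 1 was small. The mean in DN-bmal1a ECs was 58.5% of the control mean (469 ± 176 against 802 ± 181, SD, n = 3), with a log2 fold change of -0.83 (SE 0.29, adjusted p = 0.357). The tenascin gene tnc, expressed in embryonic connective tissue and muscle boundaries, had 332, 378 and 406 reads in controls (8.02, 10.1 and 8.07 CPM) and 250, 0 and 0 reads in DN-bmal1a libraries (5.79, 0 and 0 CPM). DN-bmal1a replicate 1 was close to the controls, and the group difference rests on the other DN-bmal1a libraries, in which no read was counted. Its log2 fold change was -2.36 (SE 0.88, adjusted p = 0.372), and tnc too was not among the 3 members that the edgeR quasi-likelihood test gave an unadjusted p under 0.05. sparc, which encodes a collagen-binding protein of basement membranes, was among the few members with a log2 fold change above 0 (0.18, SE 0.28, adjusted p = 0.833). It stood at 138, 203 and 311 CPM in controls and 263, 202 and 242 CPM in DN-bmal1a libraries, all within the control range. Its relative sparcl1 did not exceed 3.50 CPM.

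Decorin and the matrilins bind to collagen fibrils and link matrix networks, matrilins above all in cartilage. The 4 members all had log2 fold changes below 0 (median -0.36), and none had a p under 0.05. matn4 was at 43.1, 89.9 and 67.0 CPM in controls and 101, 44.5 and 24.6 CPM in DN-bmal1a libraries, with DN-bmal1a replicate 1 the highest and DN-bmal1a replicate 3 the lowest of all (log2 fold change -0.40, SE 0.49, adjusted p = 0.788). dcn, the decorin gene, was at 0, 2.44 and 5.87 CPM in controls and 1.69, 0 and 0 CPM in DN-bmal1a libraries (log2 fold change -1.04, SE 0.82, adjusted p = 0.666). matn3a ranged from 6.28 to 26.0 CPM and matn1 from 0 to 4.52 CPM, with overlapping groups.

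Lysyl oxidases cross-link collagen and elastin. All 6 had log2 fold changes below 0 (median -0.33), none had a p under 0.05, and all 6 sets of libraries overlapped. loxl2b stood at 0, 28.3 and 37.1 CPM in controls and 12.5, 1.1 and 24.1 CPM in DN-bmal1a libraries. Control replicate 1 had no read while both other controls were above every DN-bmal1a library, so that the log2 fold change of -0.22 (SE 1.43, adjusted p = 0.964) became -1.91 without control replicate 1 and 0.83 without DN-bmal1a replicate 2. loxl3b stood at 17.1, 6.32 and 29.6 CPM in controls and 6.16, 0 and 15.5 CPM in DN-bmal1a libraries (log2 fold change -1.70, SE 1.06, adjusted p = 0.587). lox, loxl1, loxl2a and loxl5a did not exceed 7.41 CPM.

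Among the matrix metalloproteinases, mmp2 showed the clearest separation of the groups of any member. It encodes gelatinase A, which degrades type IV collagen and denatured collagens and whose proenzyme is activated at the cell surface by the membrane-bound MMP14 with TIMP2 as the bridge. mmp2 was even in controls, at 136, 126 and 141 CPM, and stood at 69.0, 31.0 and 66.4 CPM in DN-bmal1a libraries. The highest DN-bmal1a library was below the lowest control, and the DN-bmal1a mean was 41.3% of the control mean (55.5 ± 21.2 against 134 ± 7.90, SD, n = 3). This gave a log2 fold change of -1.34 (SE 0.32, 95% interval -2.06 to -0.63, adjusted p = 0.234). It lay between -1.54 and -0.98 when 1 library was left out, and DESeq2 on recovered reads gave -1.26 (adjusted p = 0.0318). The edgeR exact test gave -1.28 (adjusted p = 0.0889), and the edgeR quasi-likelihood test gave -1.28 (adjusted p = 0.389).

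The other parts of this activation system were less separated. mmp14b was at 134, 221 and 306 CPM in controls and 165, 123 and 238 CPM in DN-bmal1a libraries (log2 fold change -0.30, SE 0.33, adjusted p = 0.763), with only DN-bmal1a replicate 2 below the controls. timp2b stood at 234, 341 and 531 CPM in controls and 307, 70.4 and 196 CPM in DN-bmal1a libraries, where replicates 2 and 3 were below every control and replicate 1 was not. Its log2 fold change was -1.10 (SE 0.49, 95% interval -2.19 to -0.01, adjusted p = 0.439). timp2a, the second TIMP2 gene, was at 76.3, 84.9 and 201 CPM in controls and 71.4, 56.2 and 98.1 CPM in DN-bmal1a libraries (log2 fold change -0.57, SE 0.38, adjusted p = 0.607). Control replicate 3 held the highest value of mmp2, mmp14b, timp2a and timp2b alike.

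The metalloproteinases known from inflammatory cells did not separate the groups. mmp9, gelatinase B, stood at 233, 317 and 180.3 CPM in controls and 104, 295 and 149 CPM in DN-bmal1a libraries (log2 fold change -0.51, SE 0.36, adjusted p = 0.629). mmp13a, a collagenase expressed by macrophages in zebrafish embryos, stood at 147, 142 and 53.0 CPM in controls and 77.4, 205 and 85.0 CPM in DN-bmal1a libraries, with overlapping groups. Both were highest in control replicates 1 and 2 and DN-bmal1a replicate 2. The summed level of the 7 listed myeloid marker genes was 11098, 9028 and 6462 CPM in controls and 6269, 9435 and 6975 CPM in DN-bmal1a libraries, with the same 3 libraries at the top, as for 5 of the 7 markers singly (all but coro1a and lgals2a), and its part in the mmp9 and mmp13a values was not tested. mmp23bb did not exceed 6.98 CPM.

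ADAMTS proteases were sparse. adamts9, which cuts versican, was at 5.48, 8.11 and 20.2 CPM in controls and 12.5, 0 and 5.14 CPM in DN-bmal1a libraries (log2 fold change -1.31, SE 1.02, adjusted p = 0.666). adamts3, which processes procollagen and the lymphatic growth factor VEGFC, ranged from 0 to 10.5 CPM, and adamts10, whose product binds fibrillin, from 0 to 9.88 CPM. All 3 genes had overlapping groups.

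ngs, named for its expression in the notochord, had the most negative log2 fold change of the 46 genes. It had 550, 12288 and 5254 reads in controls (13.3, 329 and 104 CPM) and 85, 268 and 682 reads in DN-bmal1a libraries (1.97, 9.83 and 12.1 CPM). Every DN-bmal1a library was below every control, but control replicate 1 was just above DN-bmal1a replicate 3, and the controls themselves spanned a wide range (149 ± 162 against 7.97 ± 5.32, SD, n = 3). The log2 fold change was -3.40 (SE 1.04, 95% interval -5.73 to -1.07, adjusted p = 0.298), and it was -2.37, with an unadjusted p above 0.05, without control replicate 2. The edgeR exact test gave -4.22 (adjusted p = 0.00229) and DESeq2 gave -4.19 (adjusted p = 0.000869). With the edgeR quasi-likelihood test the value was -4.22 (adjusted p = 0.389).

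The notochord and cartilage marker sum was highest in control replicates 2 and 3, as ngs was, but the other libraries were ordered differently. Of 15 notochord and cartilage markers, 9 were in the table, and their summed level was 133, 579 and 380 CPM in controls and 235, 132 and 129 CPM in DN-bmal1a libraries, with control replicate 2 highest and control replicate 1 about level with DN-bmal1a replicates 2 and 3. DN-bmal1a replicate 1, the lowest library for ngs, lay above control replicate 1 in this sum. 8 of the 9 had a log2 fold change below 0, against 58.1% of all genes. At an unadjusted limma p under 0.05, 2 (ta and col2a1a) were lower, against 8.12% of all genes. Both are also on the study's list of changed genes from these libraries. Of the defining markers, noto and shha had no row. The Brachyury gene of the notochord, ta, was at 5.26, 22.5 and 3.74 CPM in controls and at 0, 0 and 0.053 CPM in DN-bmal1a libraries. Its groups did not overlap, and ta was higher in control replicate 1 than in DN-bmal1a replicate 1, as ngs was. The part of notochord RNA in the ngs values was not tested. fbn2b, another gene of the notochord, also had its highest level in control replicate 2, whereas frem1b had its highest in control replicate 3.

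**Figure D4:**
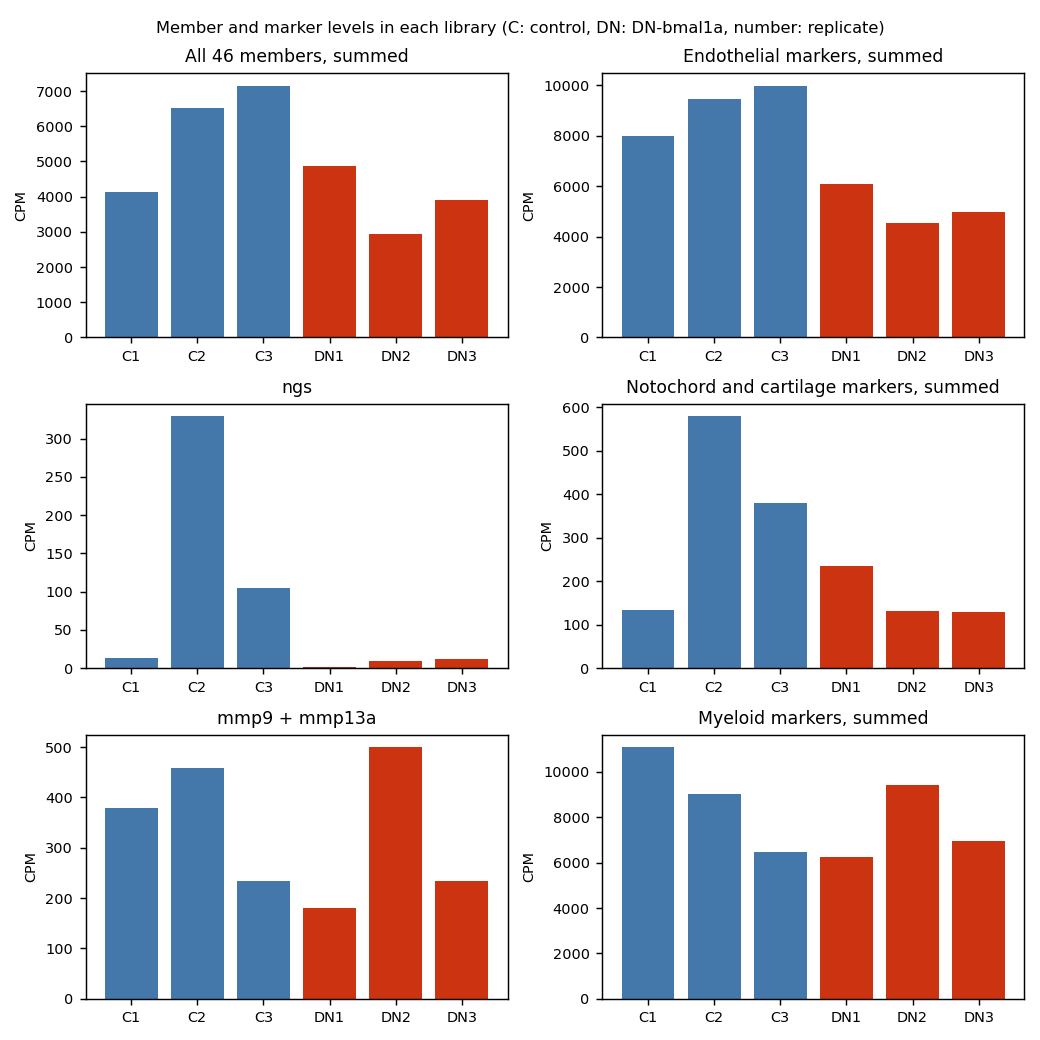
Summed CPM per library of the 46 matrix genes, of ngs, and of mmp9 with mmp13a (left), beside the summed CPM of endothelial, notochord and cartilage, and myeloid marker genes (right). C1 to C3 are controls and DN1 to DN3 are DN-bmal1a libraries, 1 bar per library from 0. The matrix sum overlaps between groups while the endothelial sum does not. Both ngs and the notochord and cartilage sum peak in C2 but order C1 and DN1 in opposite ways. The sum of mmp9 with mmp13a and that of the myeloid markers are highest in C1, C2 and DN2.

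Markers of other cell types were also present, at levels that differed between libraries. The 10 listed mesenchyme and fibroblast markers summed to 396, 883 and 856 CPM in controls and 578, 709 and 421 CPM in DN-bmal1a libraries, with overlapping groups. pdgfra was at 14.6, 3.96 and 2.49 CPM in controls and at 0 in every DN-bmal1a library, and is on the study's list of changed genes from these libraries. It was the only 1 of the 10 with an unadjusted p under 0.05 (against 8.12% of all genes lower) or without overlap of the groups (against 10.7% lower). On the same list col1a1b was about level (log2 fold change -0.05), and and1 and and2 lay above 0 (0.46 and 1.53). Markers of skeletal muscle summed to 1319, 1997 and 4775 CPM in controls and 909, 970 and 4275 CPM in DN-bmal1a libraries, with replicate 3 of both groups at the top and no row for myod1 or myog. The 9 listed erythroid markers summed to 3271, 969 and 2152 CPM in controls and 4143, 6118 and 6059 CPM in DN-bmal1a libraries, where every DN-bmal1a library was above every control. Globin genes carried that sum, and hbae1, hbae3, hbbe1.1 and hbbe3 are on the study's list of changed genes from these libraries. At an unadjusted limma p under 0.05, 6 of the 9 were higher, against 3.10% of all genes, and 1 was lower, against 8.12%. The 6 included slc4a1a and cahz, which are not globin genes (log2 fold changes 1.01 and 1.47). The 1 lower gene was gata1a, the erythroid regulator on the list. Its groups did not overlap, at 4.13, 5.84 and 8.89 CPM in controls and 0, 0 and 1.83 CPM in DN-bmal1a libraries. Rows were found for 2 of 7 mural, 7 of 9 neural and 5 of 12 neural crest and pigment markers. Their sums ran from 81.9 to 223 CPM (mural), 58.3 to 136 CPM (neural) and 46.9 to 164 CPM (neural crest). At an unadjusted limma p under 0.05, 1 mural marker (myh11a), 2 neural markers (sox3 and tubb5) and 1 neural crest and pigment marker (dct) were lower. None of these lists had a higher marker at that threshold, and 8.12% and 3.10% of all genes were lower and higher. On the study's list of changed genes are dct, as lower, and gch2, as higher. Many mural and neural crest and pigment markers had no row, and none of these sums can show how many such cells were present. The mural marker myh11a alone stood at 138, 159 and 109 CPM in controls and 67.8, 125 and 48.4 CPM in DN-bmal1a libraries. The part of any of these cell types in the matrix values was not tested.

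The counts were also taken by level, by detection and by scaling. The deepest library, DN-bmal1a replicate 3 (55004237 reads), held 2 reads of lama1 and 0 of tnc, and had 6 members and 865 genes at 0. The shallowest, DN-bmal1a replicate 2 (26161915 reads), had 12 members and 1760 genes at 0. The part of depth in these counts was not tested. Of the 21 members with a mean of at least 20 CPM over all libraries, 18 (85.7%) had a log2 fold change below 0, against 52.9% of the 5171 genes at that level. At an unadjusted p under 0.05, 5 of the 21 (23.8%) were lower, against 8.72% of those 5171 genes. The 17 members with 0 reads in at least 1 library included 1 (tnc) at that threshold. With the other scalings of the libraries, 0 members were higher at a p under 0.05, 7 were lower after quantile normalisation and 5 after rescaling to a common sum. The share of all genes that were lower at this threshold is not given for these scalings, so the counts are a description. The median of all genes moved from -0.13 to 0.04 with quantile normalisation and that of the members from -0.56 to -0.38, with 32 of the 46 members below 0 in place of 40. Among all genes at a p under 0.05, the share that was lower was 72.4% as deposited, 56.4% after quantile normalisation and 63.0% after rescaling.

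Genes of the matrix outside the symbol rule were followed through a list of 90, of which 43 were in the table. 11 of the 43 (25.6%) were lower at an unadjusted p under 0.05, against 8.12% of all genes, and 0 were higher, against 3.10%. None was called, 31 had a log2 fold change below 0 (72.1%, against 58.1% of all genes), and the median was -0.46. The list was chosen with earlier results of these data known, so its counts are a description. The lowest p belonged to hapln3, which encodes a link protein that ties hyaluronan to proteoglycans and stood at 330.1, 364 and 397 CPM in controls and 158, 119.6 and 150.3 CPM in DN-bmal1a libraries (log2 fold change -1.35, SE 0.19, adjusted p = 0.10). Of 11 collagen and matrix processing genes, 8 had a log2 fold change below 0 and 3 above it. Among them serpinh1b, the collagen chaperone Hsp47, stood at 2920.1, 2751 and 4071 CPM in controls and 2312, 1081 and 1490.2 CPM in DN-bmal1a libraries (log2 fold change -1.04, SE 0.27, adjusted p = 0.256). The groups of hapln3 and of serpinh1b did not overlap. Of the genes followed here, hapln3 and tnw are on the study's list of changed genes from these libraries. Basement membrane collagens were represented by 3 genes, 2 with a log2 fold change below 0 and 1 (col15a1b, 0.80) above it. Of these col18a1 had an unadjusted p under 0.05, at 69.2, 93.0 and 122 CPM in controls and 47.2, 39.7 and 38.1 CPM in DN-bmal1a libraries (log2 fold change -1.13, SE 0.29, adjusted p = 0.253). egfl7, on this list, is also 1 of the endothelial markers. Among 9 matrix receptor genes, 2 were lower and 0 higher at a p under 0.05, beside the same shares of 8.12% and 3.10% of all genes.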

How the data were processed

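Sorted tail ECs of 3 control and 3 DN-bmal1a zebrafish samples at 36 hpf were sequenced with SMARTer and Nextera libraries. Per the labels and the study's methods, the authors aligned reads with STAR 2.7.0f, counted them per gene with HTSeq 0.9.1 and scaled them with edgeR (3.38.4 in the submitters' processing notes, another version in the methods). The methods name GRCz10 and the notes GRCz11, so no coordinates are given. The deposited signal values are reads per 1000000 of a scaled library size (CPM). Column sums ran from 959211 to 1038170, and 100% of values above 0 were whole multiples of 1 read (tolerance 0.001), which recovered the reads. 1 read was worth 0.0178 to 0.0367 CPM.

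The main test was limma 3.58.1 in R 4.3.3, applied to log2(CPM + 1) with a mean-variance trend, for all 10232 genes, with no filter, and Benjamini-Hochberg adjustment. Alternatives were a pseudocount of 0.1 or 10, a minimum mean of 1 CPM, quantile normalisation, rescaled sums, no trend, array weights, a replicate block, each library left out, and count tests on the recovered reads (DESeq2 1.42.0, and both the exact and the quasi-likelihood test of edgeR 4.0.16). Scripts were tested on simulated data.

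All 46 members are accounted for, 44 by their RefSeq symbol and the rest by a synonym. Members, marker lists and the list of other matrix genes were chosen with earlier results of these data known. Full statistics are given for frem1b, ngs and fbn2b (listed by the study from these same libraries), for members with a p under 0.05 and groups that do not overlap, and for the most abundant and the lowest-p member of each role group. lamc1, lamb1a, lamb1b, fbln5, timp2a, mmp14b and sparc were given full statistics, and hapln3, serpinh1b and col18a1 were named, after their values were seen. The sources do not say that replicates came from separate clutches, so p-values measure the spread between these pools only.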

Additional observations from a re-analysis of the deposited data

How the results depend on the processing

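With all 6 libraries, 7 members were lower at a limma p under 0.05 (15.2%, against 8.12% of all genes). The count was 4 without the eBayes trend and 13 with array weights. It was 3 with edgeR's quasi-likelihood test, where 804 of all 10232 genes passed in either direction. Without control replicate 1 and DN-bmal1a replicate 2 together (chosen after seeing the data) it was 12, against 6.87% of all genes. With 1 library left out it ran from 2 to 12. For the trend, array weight and replicate block settings the share of all genes is not given, so those counts are a description. Members called, 0 in limma, were 1 with the edgeR exact test and 2 with DESeq2. Members whose groups do not overlap numbered 4, all lower (8.70%, against 10.7% of all genes), then 22, all lower, with those libraries left out together (47.8%, against 23.9%), and 5 to 20 with 1 left out. The 20, without control replicate 1, were all lower (43.5%, against 17.2%), and the 5, without DN-bmal1a replicate 2, too (10.9%, against 15.3%). Among named genes, the log2 fold change of loxl2b turned to 0.60 with a pseudocount of 0.1 and 0.16 with quantile normalisation, and ran from -1.91 to 0.83 with 1 library left out. That of agrn turned to -0.59 with array weights, -0.17 with either edgeR test, -0.14 with DESeq2 and -0.81 with both libraries left out, and ran from -0.61 to 0.51. fn1a turned to 0.032 with both left out and ran from -1.07 to 0.40, sparc ran from -0.10 to 0.48, and matn4 from -0.93 to 0.068. The cause was not tested. Of the other values for named genes, 431 kept direction and side of the threshold and 3 passed it. Deviations from the group means had correlations of -0.07, -0.01 and 0.0025 between libraries of the same replicate number. Such values cannot show whether the samples were paired. With the replicate block 0 members were called, 6 were at a p under 0.05 and the median was -0.56. The block moved the unadjusted limma p of single genes both ways, from 0.00886 to 0.00046 for ngs (adjusted p = 0.325) and from 0.042 to 0.065 for lamc1. The members with 0 reads in some library all had a mean under 20 CPM. Such a mean can still hold many reads (tnc: 332, 378 and 406 in controls, 250, 0 and 0 in DN-bmal1a libraries). A group of 3 libraries limits every test.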
